A study of Mus musculus with 15 samples.

Results

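The 10 loci described here hold genes that bring fatty acids into the fat cell, build triglyceride, and coat or mobilise the lipid droplet. Members were set by position: every HindIII site within 500 kb of a position at Fabp4, Lpl, Cd36, Gpam, Agpat2, Dgat1, Dgat2, Plin1, Pnpla2 or Lipe was counted to that gene's locus. The 10 loci held 2866 of the 823355 HindIII sites of the mouse genome listed in the files, between 218 sites at Pnpla2 and 368 at Lpl. The study used 4C-seq, which fixes chromatin, cuts it with HindIII, ligates ends that lay near each other, cuts again with DpnII and amplifies from 1 chosen site, the bait, so that reads mark sites ligated to it. The baits lay at Pparg on chromosome 6, at Lpin1 on chromosome 12 and at Ifng on chromosome 10, so that none of the 10 loci shared a chromosome with a bait. Each bait was read in 3T3-L1, a mouse fibroblast line that turns into adipocytes, with 2 libraries at each of days 0, 1, 2 and 6, and in 1 library of a B lymphocyte cell line.

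Day 0 is the 3T3-L1 culture held for 2 days after it reached confluence and not yet induced, and it serves as the reference for the later days. Differentiation was started by dexamethasone, 3-isobutyl-1-methylxanthine and insulin in serum. From day 2 the cells had insulin and serum, and after that serum alone. All groups were crosslinked in 2% formaldehyde, for 10 min. The labels name no genetic change in any group, and give the B lymphocyte line no day or differentiation stage and no further description. The labels do not say whether the 2 libraries of a day came from separate cultures, so every p-value measures the spread between these libraries, which may be technical. The files hold no expression values, and the labelled cell types were not checked against markers.

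Triglyceride is made by adding fatty acids to glycerol phosphate. GPAM adds the first acyl chain and AGPAT2 the next, a lipin phosphatase such as the product of the bait gene Lpin1 removes the phosphate, and DGAT1 or DGAT2 adds the last chain. In adipocytes the fatty acids arrive through lipoprotein lipase (LPL) at the capillary wall and the transporter CD36, and are carried in the cytosol by FABP4. The stored droplet is coated by perilipin (PLIN1), and is broken down by adipose triglyceride lipase (PNPLA2) and then by hormone-sensitive lipase (LIPE). PPARγ, the product of the bait gene Pparg, is a nuclear receptor needed for adipocyte differentiation that activates many of these genes, while Ifng encodes the lymphocyte cytokine interferon gamma.

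In mm9 coordinates the windows were chr3:9700000-10700000 for Fabp4, chr8:70900000-71900000 for Lpl, chr5:16840000-17840000 for Cd36, chr19:54640000-55640000 for Gpam, chr2:25950000-26950000 for Agpat2 and chr15:75830000-76830000 for Dgat1. Chromosome 7 held 4 loci, namely chr7:105800000-106800000 for Dgat2, chr7:86370000-87370000 for Plin1, chr7:148140000-149140000 for Pnpla2 and chr7:25660000-26660000 for Lipe. Each window spans many genes: within 500 kb in the RefSeq gene order of GRCm38.p6, Dgat1 had 51 other protein-coding genes, Pnpla2 41, Lipe 34 and Agpat2 33, Plin1 had 17, Dgat2 12 and Fabp4 10, and Lpl had 8 against 5 at Cd36 and at Gpam. The nearest neighbours include genes of the same pathway. Fabp4 lay between Fabp9 and Fabp12 in a cluster of fatty acid binding protein genes, Dgat2 lay beside Mogat2, which encodes a monoacylglycerol acyltransferase, and Acsl5, which encodes an acyl-CoA synthetase, was the third gene beyond Gpam. A value of a locus is therefore a value of 1 Mb of chromosome and not of 1 gene.

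Promoter sequences are given as background, and no result below uses them, since every value is taken over a window. The RefSeq promoter table (GRCm38.p6, 250 bases before each start, a build other than that of the files) held 8 promoters of 6 of the genes, namely Agpat2, Cd36, Gpam, Lipe, Plin1 and Pnpla2. Both strands were searched for the HindIII letters AAGCTT, where a bait can be joined, and for AGGTCA, the core letters bound by nuclear receptors such as PPARγ, which read TGACCT on the other strand. AAGCTT occurred in 1 of the 8 promoters, the upstream start of Gpam, against 7.45% of the 32851 promoters of that length in the table, and AGGTCA occurred in 2, Cd36 and the other start of Gpam, against 16.3%. A match is a match of letters and not a bound site. The Gpam and Cd36 promoters are shown for these matches, in capitals, and 1 of Lipe and that of Pnpla2 as examples without a match. No capital stands in the latter pair, where neither motif was found.
Gpam, upstream start, chr19:55127239-55127488, minus strand: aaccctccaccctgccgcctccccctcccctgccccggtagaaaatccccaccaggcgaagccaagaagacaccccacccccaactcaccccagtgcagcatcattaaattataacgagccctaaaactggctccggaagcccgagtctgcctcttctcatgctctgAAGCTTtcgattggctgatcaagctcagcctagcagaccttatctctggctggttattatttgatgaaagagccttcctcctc
Gpam, downstream start, chr19:55099478-55099727, minus strand: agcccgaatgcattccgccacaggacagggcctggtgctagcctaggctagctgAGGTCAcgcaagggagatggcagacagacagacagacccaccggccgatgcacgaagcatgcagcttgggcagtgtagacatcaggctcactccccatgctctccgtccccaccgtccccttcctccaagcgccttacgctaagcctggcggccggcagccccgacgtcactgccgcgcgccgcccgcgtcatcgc
Cd36, chr5:17835897-17836146, minus strand: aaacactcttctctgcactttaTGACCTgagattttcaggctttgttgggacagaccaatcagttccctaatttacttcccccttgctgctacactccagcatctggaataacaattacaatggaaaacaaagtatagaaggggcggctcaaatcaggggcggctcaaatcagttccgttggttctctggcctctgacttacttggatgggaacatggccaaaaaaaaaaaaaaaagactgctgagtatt
Lipe, upstream start, chr7:25395988-25396237, minus strand: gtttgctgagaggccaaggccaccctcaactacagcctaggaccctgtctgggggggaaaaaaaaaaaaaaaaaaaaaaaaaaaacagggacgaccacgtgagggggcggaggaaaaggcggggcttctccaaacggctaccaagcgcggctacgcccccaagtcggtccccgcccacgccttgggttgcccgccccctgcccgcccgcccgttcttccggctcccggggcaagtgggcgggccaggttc
Pnpla2, chr7:141454938-141455187, plus strand: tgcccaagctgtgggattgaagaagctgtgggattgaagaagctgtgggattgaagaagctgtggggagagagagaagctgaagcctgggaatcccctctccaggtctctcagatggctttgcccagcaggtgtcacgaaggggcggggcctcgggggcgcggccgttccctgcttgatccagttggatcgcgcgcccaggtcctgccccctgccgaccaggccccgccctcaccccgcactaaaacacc

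The 27 libraries held 116031 to 3002206 reads, of which 13067 to 697525 lay on autosomes other than the bait's. A site with 1 read or more was scored as captured, because reads are amplified by PCR and 14.2% to 74.1% of captured sites per library had 1 read. Between 0.443% and 7.72% of HindIII sites on the other autosomes were captured, and 5 libraries, all of them replicate 2, captured under 1% (Pparg days 1, 2 and 6, Lpin1 days 1 and 6). Some libraries of a bait shared captured sites far more often than their shares give. Pairs among the Pparg replicate 2 libraries of the 4 days shared 13.0 to 21.1 times the number of sites given by chance from their captured shares, and shared 8.56 to 14.1 times that number with the Pparg library of B cells, against 1.66 to 6.28 times for other Pparg pairs. The Lpin1 replicate 2 libraries of days 1 and 2 shared 48.1 times the number, which was 51.8% of the sites of the smaller, and 10.3 to 11.1 times with the Lpin1 library of B cells, against 2.59 to 10.4 times for other Lpin1 pairs. Ifng pairs all lay at 4.16 to 8.62 times and pairs of different baits at 0.886 to 2.67 times. The cause of the sharing was not tested, and results are given with all libraries and, where sharing changes them, without these 6.

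For each locus the captured share was set against that of the other autosomes in the same library, and the quotient is called the multiple, so that 1 is the genome's level. With the Pparg bait, 5 to 10 of the 10 loci had a multiple above 1 per 3T3-L1 library (median 7.5), while 35.6% to 42.7% of all 1 Mb windows did. With the Lpin1 bait 7 to 9 loci did (median 9), against 40.0% to 44.3% of windows. With the Ifng bait 1 or 2 loci did (median 1), against 32.8% to 38.8% of windows. Most of these loci were thus above the genome's level with the baits at the fat genes and below it with the bait at Ifng.

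**Figure D1:**
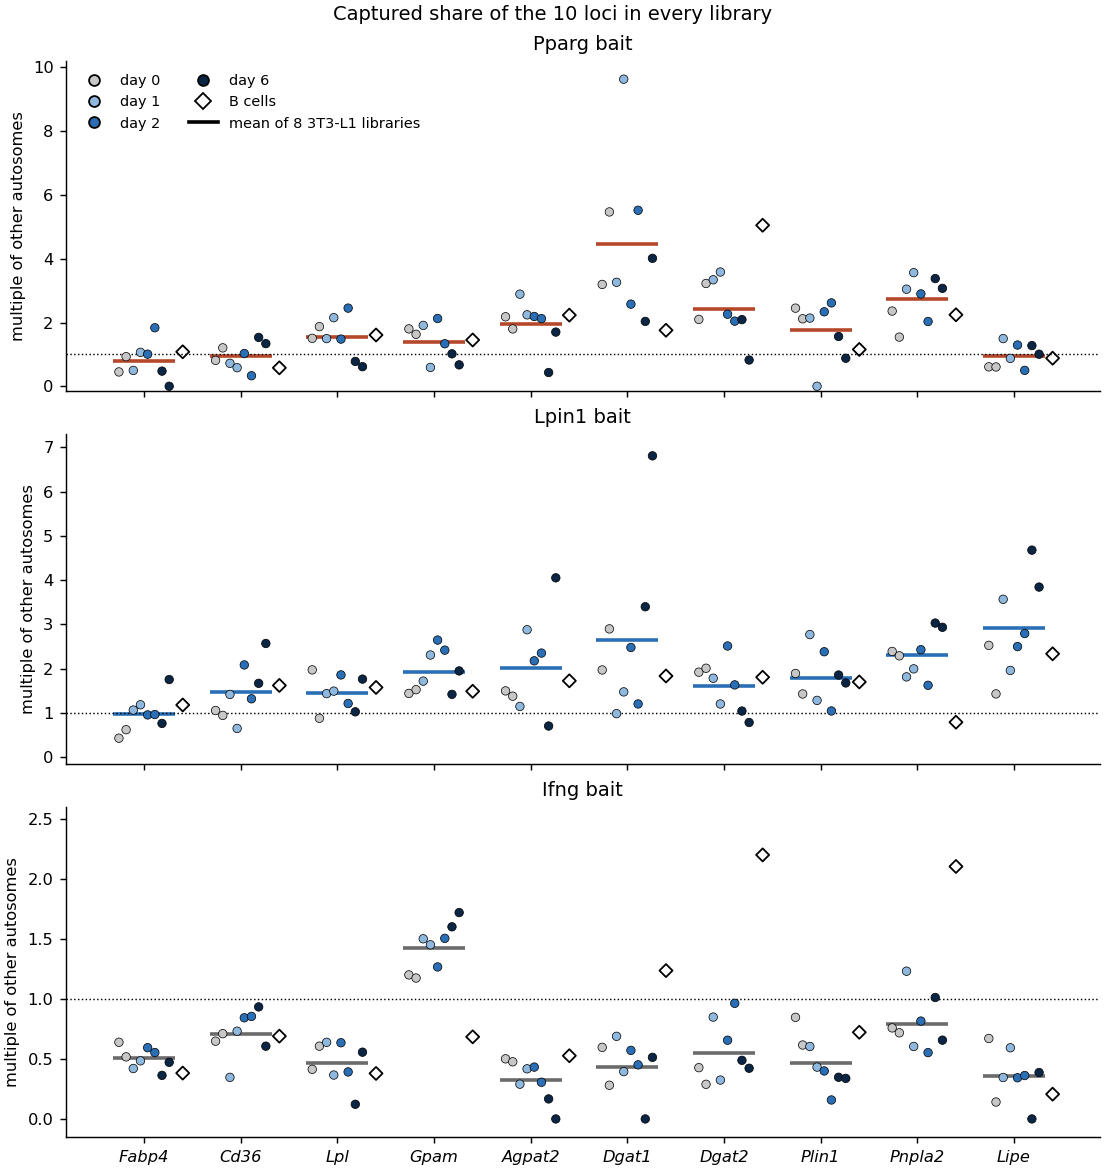
Multiple of each of the 10 loci (x axis, by gene) with the Pparg, Lpin1 and Ifng baits (panels), where the y axis is the captured share of the locus over that of other autosomes in the same library and the line at 1 is the genome's level. Points are single libraries by day, bars are means of the 8 libraries of 3T3-L1 and the remaining symbol is the B cell library; with the Ifng bait 9 of 10 means lie below 1, and with the Lpin1 bait 9 of 10 lie above it.

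Tested over the 8 libraries of 3T3-L1 with edgeR's quasi-likelihood test and Benjamini-Hochberg adjustment over all windows, 6 of the 10 loci were captured above the other autosomes with the Pparg bait, where 25.1% of 2257 windows were, and 1 locus below, where 46.7% of windows were. With the Lpin1 bait 9 loci were above, where 22.5% of 2285 windows were, and none below, where 36.4% were. With the Ifng bait 1 locus was above, where 21.7% of 2277 windows were, and 8 below, where 48.4% were. The median log2 multiple over the 10 loci was 0.67, 0.79 and -1.04 with the Pparg, Lpin1 and Ifng baits, beside -0.46, -0.24 and -0.31 over all windows tested. Counting only loci on 1 side in every library, 2 loci were above 1 in all 8 libraries with Pparg (12.3% of windows), 4 with Lpin1 (11.3%) and 1 with Ifng (14.8%). None was below 1 in all 8 with Pparg (30.3%) or Lpin1 (24.7%), and 8 were with Ifng (36.9%).

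How many HindIII sites a window holds moved with its capture, and the loci are not spread evenly over that scale. Windows were sorted by site number into 10 classes of like size. In the class with the fewest sites the pooled multiple was 1.98 with Pparg and 1.55 with Lpin1, and in the class with the most it was 0.687 and 0.819, whereas with Ifng it was 0.791 and 0.926. Plin1, Lipe, Pnpla2, Dgat1, Dgat2 and Agpat2 lay in the class with the fewest sites, Cd36 and Gpam in class 7, and Fabp4 and Lpl in the class with the most. An alternative chosen after seeing the data therefore set each locus against windows of its own class. With Pparg 5 loci were then above (24.1% of windows) and 1 below (43.6%), and 4 of the 5 were among the 6 called before. With Lpin1 6 loci were above (19.2% of windows), all among the 9 called before, and with Ifng the same 8 were below (47.8%) and Gpam above. Both values are given for each locus in what follows.

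**Figure D2:**
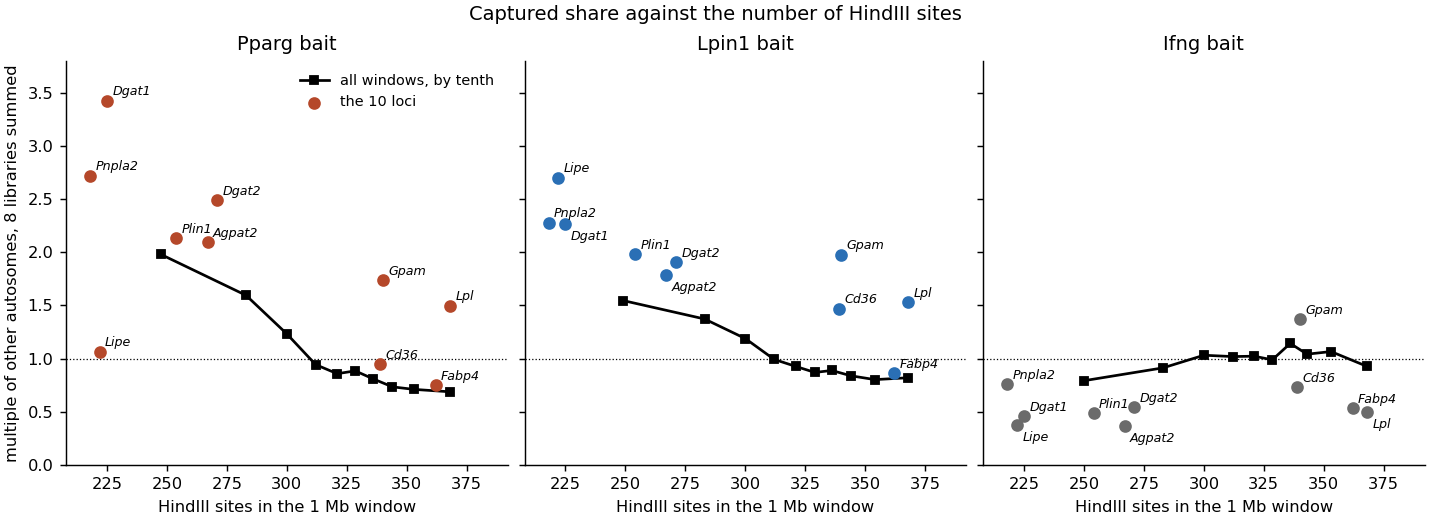
HindIII sites per 1 Mb window (x axis) against the pooled multiple over the 8 libraries of 3T3-L1 (y axis), 1 panel a bait. Black squares joined by lines are the 10 classes of all windows by number of sites and labelled points are the 10 loci; 6 loci lie in the class with the fewest sites, where the pooled multiple of all windows is 1.98 with Pparg, 1.55 with Lpin1 and 0.791 with Ifng.

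Of the loci for uptake and transport, Lpl, which encodes the lipase that frees fatty acids from lipoproteins, was the one that stood above windows of its own site number with both fat-gene baits. Its multiple with Pparg ranged from 0.614 to 2.45 with a median of 1.50 (mean 1.54 ± 0.628, SD, n = 8), with 6 of 8 libraries above 1. The log2 multiple against other autosomes was 0.38 ± 0.20 (SE), which did not pass (edgeR adjusted p = 0.074), and against windows of like site number it was 0.89 ± 0.19, which did. With Lpin1 the multiple ranged from 0.882 to 1.98 with a median of 1.47 (mean 1.46 ± 0.397, n = 8), a log2 of 0.51 ± 0.18 (edgeR adjusted p = 0.015), and 0.78 ± 0.18 against like windows. The Lpin1 call over other autosomes did not pass (log2 0.20 to 0.64) at 2 reads or more, with 250 kb on each side, over sites also seen with the other baits, with limma, without libraries under 1% captured, or without any 1 of day 0, 1, 2 or 6 replicate 1 and day 6 replicate 2. With Ifng all 8 libraries lay below 1, from 0.122 to 0.639, with a median of 0.485 (mean 0.466 ± 0.178), a log2 of -1.08 ± 0.18 (edgeR adjusted p = 3.5e-09). The Lpl ranges of Lpin1 and Ifng did not overlap, and those of Pparg and Ifng overlapped only by the lowest Pparg library, at day 6. How often the ranges of 2 baits do not overlap over all windows was not counted.

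Cd36, which encodes a fatty acid transporter of the cell surface, was above the genome with the Lpin1 bait and not with the Pparg bait. With Lpin1 its multiple ranged from 0.652 to 2.57 with a median of 1.37 (mean 1.47 ± 0.629, n = 8), a log2 of 0.51 ± 0.18 (edgeR adjusted p = 0.014), and 0.72 ± 0.18 against windows of like site number. That call was lost, with a value of -0.41, when shares were taken over the sites that the other baits also captured. It also missed the threshold with limma (0.40) and without day 1 replicate 1 (0.29), day 2 replicate 1 (0.37) or day 6 replicate 2 (0.46). With Pparg it ranged from 0.331 to 1.53 with a median of 0.920, a log2 of -0.06 ± 0.22 (edgeR adjusted p = 0.89), and 4 libraries lay above 1 and 4 below. With Ifng it was 0.347 to 0.934 with a median of 0.721, a log2 of -0.51 ± 0.16 (edgeR adjusted p = 0.0020). All 8 Ifng libraries lay below 1, and their range overlapped that of each other bait.

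Fabp4, which encodes the cytosolic fatty acid carrier of adipocytes, was above the genome with no bait. Its multiple ranged from 0 to 1.84 with a median of 0.713 with Pparg (mean 0.782 ± 0.555, n = 8), from 0.432 to 1.76 with a median of 0.963 with Lpin1 (mean 0.970 ± 0.401), and from 0.363 to 0.639 with a median of 0.501 with Ifng (mean 0.505 ± 0.0904). The value of 0 is 0 of 362 sites in Pparg day 6 replicate 2, which allows a captured share of up to 0.829% where that library captured 0.443% of the other autosomes. The log2 multiple was -0.71 ± 0.30 with Pparg (edgeR adjusted p = 0.013), -0.21 ± 0.24 with Lpin1 (0.49) and -0.98 ± 0.17 with Ifng (1.5e-08). The Pparg value was -0.17 ± 0.30 against windows of like site number and no longer passed, and it also missed the threshold without the Pparg replicate 1 library of day 0, 1 or 2, with 250 kb on each side, over sites also seen with the other baits, and with limma. The Ifng value passed in both comparisons.

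Gpam, which encodes the enzyme of the first acylation, was above the genome with all 3 baits, as was no other of the 10 loci. With Ifng the multiple ranged from 1.17 to 1.72 with a median of 1.48 (mean 1.43 ± 0.196, n = 8), a log2 of 0.48 ± 0.12 (edgeR adjusted p = 0.00038). With Lpin1 it ranged from 1.42 to 2.65 with a median of 1.84 (mean 1.93 ± 0.478), a log2 of 0.84 ± 0.17 (7.7e-05). With Pparg it ranged from 0.591 to 2.13 with a median of 1.48 (mean 1.38 ± 0.577), a log2 of 0.60 ± 0.19 (0.0043). All 8 libraries lay above 1 with Ifng and with Lpin1, and 6 of 8 with Pparg, where the low ones were days 1 and 6 of replicate 2, with 1 captured site each. Against windows of like site number the log2 values were 0.98 ± 0.18, 1.06 ± 0.17 and 0.36 ± 0.12 with Pparg, Lpin1 and Ifng, and all 3 passed. Over other autosomes the Pparg call was lost (log2 0.21 to 0.49) with 250 kb on each side, over sites also seen with the other baits, with limma, with each site counted once, and without the replicate 1 library of day 1, 2 or 6. The Ifng call was lost at 2 reads or more (0.44), with 250 kb (0.08) and over sites seen with the other baits (0.31), and the Lpin1 call over such sites (0.11). Chromosome 19 as a whole, on which Gpam lies, had a multiple of 1.53 ± 0.131 with Pparg, 1.88 ± 0.0689 with Lpin1 and 1.18 ± 0.0793 with Ifng (SD, n = 8), so its other windows were captured above the genome as well.

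Dgat1, which encodes an enzyme of the last acylation, had the highest mean multiple of the 10 loci with the Pparg bait. The 8 Pparg libraries ranged from 2.03 to 9.63 with a median of 3.64 (mean 4.46 ± 2.44, n = 8), and all lay above 1. The log2 multiple was 1.67 ± 0.15 (edgeR adjusted p = 5.1e-17), and 0.67 ± 0.15 against windows of like site number, which passed. With Lpin1 the libraries ranged from 0.987 to 6.81 with a median of 2.23 (mean 2.65 ± 1.88), a log2 of 1.12 ± 0.18 (1.5e-06) and 0.48 ± 0.18 against like windows. With Ifng they ranged from 0 to 0.689 with a median of 0.482 (mean 0.437 ± 0.217), a log2 of -1.20 ± 0.25 (5.9e-07), the 0 being 0 of 225 sites in day 6 replicate 1, which allows a captured share of up to 1.33%. The highest Ifng library lay below the lowest of the Pparg and of the Lpin1 libraries, and the share of all windows where this holds was not counted. Over the 4 Pparg libraries that did not share sites the mean was 2.77 ± 0.577, lower than over all 8 and below the 2.92 ± 0.425 of Pnpla2. The 9.63 came from 11 captured sites in a library that captured 0.507% of the other autosomes.

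Dgat2, which encodes the other enzyme of the last acylation, followed the same order at lower values. With Pparg the multiple ranged from 0.824 to 3.58 with a median of 2.18 (mean 2.43 ± 0.908, n = 8), a log2 of 1.22 ± 0.16 (edgeR adjusted p = 4.4e-10), and 0.56 ± 0.16 against windows of like site number, which passed. With Lpin1 it ranged from 0.787 to 2.51 with a median of 1.71 (mean 1.61 ± 0.569), a log2 of 0.66 ± 0.22 (0.014), and 0.14 ± 0.22 against like windows, which did not pass. With Ifng it ranged from 0.289 to 0.964 with a median of 0.458 (mean 0.552 ± 0.247), a log2 of -0.99 ± 0.20 (6.9e-07). The lowest library with each fat-gene bait was day 6 replicate 2, with 1 captured site, and it fell inside the Ifng range. The Pparg call was lost over sites also seen with the other baits (0.56) and without day 6 replicate 1 (0.94), and the Lpin1 call over such sites (0.07) and without the replicate 1 library of day 1, 2 or 6 (0.53 to 0.59).

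Agpat2, which encodes the enzyme of the next acylation after GPAM, was captured least with the Ifng bait of all the loci. With Ifng the multiple ranged from 0 to 0.501 with a median of 0.362 (mean 0.324 ± 0.172, n = 8), a log2 of -1.90 ± 0.39 (edgeR adjusted p = 3.0e-11). With Pparg it ranged from 0.431 to 2.89 with a median of 2.15 (mean 1.94 ± 0.707), a log2 of 0.74 ± 0.22 (0.0061), and with Lpin1 from 0.708 to 4.05 with a median of 1.84 (mean 2.03 ± 1.08), a log2 of 0.74 ± 0.19 (0.0011). Of the 16 libraries of the fat-gene baits 14 lay above 1, and the exceptions were the day 6 replicate 1 libraries, with 2 captured sites each. Against windows of like site number the values were 0.05 ± 0.22 with Pparg and 0.22 ± 0.19 with Lpin1, and neither passed, while with Ifng it was -1.75 ± 0.39, which did. Over other autosomes both calls were lost with each site counted once and without libraries under 1% captured, the Pparg call also with 250 kb and without day 1 replicate 1 or day 6 replicate 2 (log2 0.54 to 0.66), and the Lpin1 call also without day 6 replicate 2 (0.31 to 0.57).

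Plin1, which encodes the coat protein of the adipocyte droplet, had a multiple of 0 to 2.62 with a median of 2.13 with Pparg (mean 1.76 ± 0.904, n = 8) and a log2 of 0.92 ± 0.18 (edgeR adjusted p = 1.9e-05). The 0 is 0 of 254 sites in Pparg day 1 replicate 2, which allows a captured share of up to 1.18% where that library captured 0.507% of the other autosomes. With Lpin1 it was 1.05 to 2.77 with a median of 1.77 (mean 1.79 ± 0.571), above 1 in 8 of 8 libraries, with a log2 of 0.92 ± 0.19 (6.7e-05). With Ifng it was 0.158 to 0.847 with a median of 0.416 (mean 0.468 ± 0.213), a log2 of -1.18 ± 0.23 (8.5e-08). Against windows of like site number the log2 was -0.06 ± 0.18 with Pparg and 0.29 ± 0.19 with Lpin1, and neither passed, while the Ifng value, -0.84 ± 0.23, did. The Pparg value turned to -0.64 without Pparg day 1 replicate 1, which leaves the library at 0 as the only one of its day, and it missed the threshold with limma (0.54) and without day 6 replicate 1 (0.75).

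Pnpla2, which encodes adipose triglyceride lipase, was above 1 in all 16 libraries of the fat-gene baits. With Pparg the multiple ranged from 1.54 to 3.56 with a median of 2.97 (mean 2.74 ± 0.697, n = 8), a log2 of 1.42 ± 0.16 (edgeR adjusted p = 2.4e-14). With Lpin1 it ranged from 1.63 to 3.03 with a median of 2.34 (mean 2.32 ± 0.499), a log2 of 1.15 ± 0.18 (2.3e-07). With Ifng it ranged from 0.553 to 1.23 with a median of 0.738 (mean 0.794 ± 0.227), a log2 of -0.39 ± 0.17, which missed the threshold (0.051), and 6 of 8 libraries lay below 1. The Ifng libraries did not overlap those of either fat-gene bait, and the share of all windows without such overlap was not counted. Against windows of like site number the values were 0.45 ± 0.15 with Pparg and 0.53 ± 0.18 with Lpin1, which passed, and -0.06 ± 0.17 with Ifng, which did not.

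Lipe, which encodes hormone-sensitive lipase, differed between the fat-gene baits. With Lpin1 it had the highest mean multiple of the 10 loci, from 1.43 to 4.68 with a median of 2.66 (mean 2.91 ± 1.06, n = 8), a log2 of 1.47 ± 0.15 (edgeR adjusted p = 4.5e-14) and 0.84 ± 0.15 against windows of like site number, which passed. With Pparg it ranged from 0.499 to 1.50 with a median of 0.940 (mean 0.957 ± 0.372), a log2 of 0.04 ± 0.26 (0.81), with 4 libraries above 1 and 4 below. Against like windows the Pparg value was -0.94 ± 0.26, below them. With Ifng Lipe ranged from 0 to 0.671 with a median of 0.354 (mean 0.355 ± 0.217), a log2 of -1.47 ± 0.29 (2.5e-08), the 0 being 0 of 222 sites in day 6 replicate 1, which allows up to 1.35%. The Pparg and Lpin1 ranges met only at their edges, the highest Pparg library being above the lowest of Lpin1.

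Few steps in the order of the 10 loci were larger than the spread. Ranked by mean multiple, neighbours differed by more than the SD of their difference over the 8 libraries at 0 of 9 steps with Pparg, 0 of 9 with Lpin1 and 1 of 9 with Ifng, which was the step from Gpam to Pnpla2 (a difference of 0.634 ± 0.285 in the multiple, in 8 of 8 libraries). Over the 10 loci the mean multiple ran against the number of HindIII sites with Spearman coefficients of -0.55, -0.85 and 0.20 for Pparg, Lpin1 and Ifng, and with the number of protein-coding neighbours with 0.67, 0.75 and -0.49. These are descriptions over 10 points that share libraries, and 4 of the points share chromosome 7, which as a whole had multiples of 0.814, 0.909 and 0.689 with the 3 baits. All 4 loci of chromosome 7 lay above their chromosome's level with Pparg and Lpin1 in the mean.

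Setting each locus against its own flanks, from 0.5 to 2 Mb on each side, compared the locus with its surroundings. With the Pparg bait 4 loci were above their flanks where 10.7% of windows were, namely Lipe (log2 1.37 ± 0.33), Pnpla2 (1.14 ± 0.21), Dgat1 (1.05 ± 0.19) and Plin1 (0.68 ± 0.24). Gpam was below (-0.88 ± 0.24), where 17.1% of windows were. With the Lpin1 bait 5 were above where 12.8% were, namely Pnpla2 (1.47 ± 0.22), Lipe (1.35 ± 0.19), Dgat1 (0.85 ± 0.22), Cd36 (0.59 ± 0.22) and Plin1 (0.57 ± 0.23), and Gpam was below (-0.51 ± 0.20), where 18.9% were. With the Ifng bait Gpam was above its flanks (0.45 ± 0.12), where 20.8% of windows were, and Agpat2 (-1.04 ± 0.42), Plin1 (-0.77 ± 0.25), Pnpla2 (-0.66 ± 0.20), Dgat1 (-0.60 ± 0.27) and Lpl (-0.54 ± 0.21) were below, where 28.5% were. Errors are SE, and the flanks' own counting error is not in them. In all 8 libraries, Lipe and Dgat1 were above their flanks with Pparg (5.14% of windows) and Gpam below (9.61%), Lipe and Pnpla2 above with Lpin1 (7.13%) and none below (11.5%), and none above (11.4%) and Pnpla2 below (16.8%) with Ifng.

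Levels of the flanks differed widely between loci. Gpam's flanks had a mean multiple of 2.79 ± 0.480 with Pparg and 2.70 ± 0.452 with Lpin1 (SD, n = 8), above the locus in 8 of 8 and 7 of 8 libraries. Dgat2's flanks had 2.46 ± 0.462 with Pparg, near the locus itself (2.43), and its log2 over flanks was -0.03 ± 0.20. Lipe's flanks had 0.341 ± 0.229 with Pparg and 0.968 ± 0.323 with Lpin1, below the locus in 8 of 8 libraries of both baits. Pnpla2's flanks had 0.754 ± 0.316 with Lpin1 and were below it in 8 of 8 libraries.

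The flank counts were less firm than those over the genome. With each site counted once, 4.52% of all windows were above their flanks with Pparg and 5.95% with Lpin1, and 5.97% were below with Ifng. With Pparg 2 loci were above without the replicate 1 library of day 1, 2 or 6, and 2 (Lipe and Pnpla2) when each site was counted in 1 library of the bait only. With Lpin1 3 were above without the replicate 1 library of day 1 or either library of day 6, 2 without day 2 replicate 1, and 3 (Lipe, Pnpla2 and Dgat1) with each site counted once. Gpam below its flanks with Lpin1 was lost when any 1 of the 8 libraries was left out. With Ifng 2 loci were below without day 1 replicate 2, 3 without day 6 replicate 1, and 1 (Plin1) with each site counted once.

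**Figure D3:**
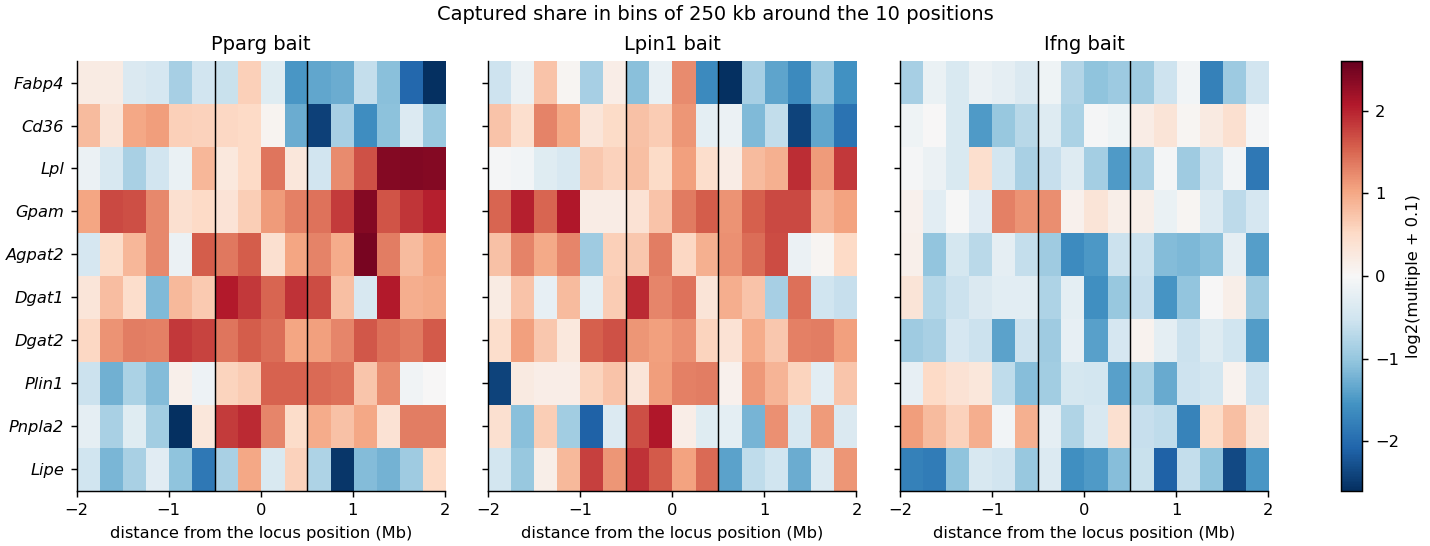
Pooled multiple over the 8 libraries of 3T3-L1 in bins of 250 kb (colour, on a log2 scale of the multiple with 0.1 added, red above the genome's level and blue below) by distance from each gene's position (x axis, Mb), with 1 row a locus and 1 panel a bait; the vertical lines bound the window. The highest bin of the 2 Mb on each side lies inside the 500 kb window for 4 of 10 loci with Pparg, 5 with Lpin1 and 1 with Ifng.

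The most captured bin lay inside the window for some loci and outside it for others. In bins of 250 kb pooled over the 8 libraries, the highest bin within 2 Mb lay inside the 500 kb window for 4 loci with Pparg (Fabp4, Plin1, Lipe and Pnpla2), 5 with Lpin1 (Fabp4, Plin1, Lipe, Pnpla2 and Dgat1) and 1 with Ifng (Lipe). The window covered 500 kb of the 2 Mb searched on each side, and the share of all windows with their highest bin inside was not counted. Inside the window, the highest bin of Plin1 lay at 250 to 500 kb with both fat-gene baits. Those of Lipe with Lpin1 and Ifng, and of Dgat1 with Lpin1, lay 250 to 500 kb before the position. At Pnpla2 the bin just below the gene position was highest with both fat-gene baits, with a multiple of 3.75 with Pparg and 4.14 with Lpin1, from 39 and 36 captures summed over libraries at its 60 sites. At Gpam the highest bin lay at 1000 to 1250 kb with Pparg, with a multiple of 5.11, and on the other side at 1000 to 1250 kb before the position with Lpin1, with 4.11. At Agpat2 it lay at 1000 to 1250 kb with both, with 5.41 and 3.13.

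Single HindIII sites were seldom captured in many libraries. With Pparg 670 of the 2866 sites were captured in at least 1 of the 8 libraries of 3T3-L1, 169 in at least 2 and 5 in at least 4. With Lpin1 the numbers were 574, 126 and 11, and with Ifng 402, 168 and 35, of which 10 lay at Gpam. The site captured most often was at Cd36 with the Ifng bait, chr5:17759616-17759621, in 7 of 8 libraries with 12 reads in all. At Dgat1 a site at chr15:76334353-76334358, 4.35 kb from the stated gene position, was captured with Pparg in 4 of 8 libraries with 126 reads, 99 of them in 1 library. At Fabp4 a site at chr3:10258016-10258021 was captured with Lpin1 in 5 libraries, where 581 of 585 reads came from 1 library. At these sites of Dgat1 and Fabp4 most reads came from 1 library, and at the Cd36 site no library had more than 3. The captured site is the unit of the tests.

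The fat-gene baits shared part of their captured sites. At Dgat1, 29 sites were captured with both, where the product of the 2 shares gives 21.9, which is 33.0% of the 88 sites of Pparg and 51.8% of the 56 of Lpin1. At Lipe 11 were shared, where the shares give 8.52, 35.5% of the 31 of Pparg and 18.0% of the 61 of Lpin1. At Cd36 8 were shared, where the shares give 8.70, 16.0% of the 50 of Pparg and 13.6% of the 59 of Lpin1. Over the genome, single libraries of different baits shared 0.886 to 2.67 times the number given by their shares, with a median of 1.34. That is a value of single libraries, and the sharing of pooled libraries was not counted over all windows. Fabp4 and Lipe had no site captured with all 3 baits, and Plin1 had the most, 7, where the number given by the 3 shares was not taken.

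A direct comparison of baits asked whether the fat-gene baits captured the lipid loci at another rate than the bait at Ifng. The Ifng libraries also differed in make-up. In 3T3-L1 the bait's site held 58.6% to 93.2% of reads with Ifng, 5.83% to 61.4% with Pparg and 3.07% to 24.6% with Lpin1. Of captured sites, 40.7% to 74.1%, 20.5% to 42.5% and 14.2% to 36.9% had 1 read, in that order of baits. The part of this make-up in the differences between baits was not tested. Dgat1 differed most from Ifng with Pparg, 6.97-fold, and Lipe with Lpin1, 6.99-fold. In 1 edgeR fit over all 27 libraries and 1959 windows off the 3 bait chromosomes, 7 loci were higher with Pparg than with Ifng in 3T3-L1, where 34.0% of windows were, and none lower, where 40.1% were. These were Dgat1 (log2 2.80 ± 0.31), Agpat2 (2.55 ± 0.48), Dgat2 (2.15 ± 0.28), Plin1 (2.05 ± 0.31), Pnpla2 (1.77 ± 0.25), Lipe (1.44 ± 0.40) and Lpl (1.41 ± 0.28), with edgeR adjusted p from 7.5e-20 to 0.00030. Gpam (0.04 ± 0.25, 95% interval -0.44 to 0.52), Fabp4 (0.21 ± 0.35) and Cd36 (0.41 ± 0.27) did not pass. Between Lpin1 and Ifng 8 were higher, where 32.4% of windows were, namely Lipe (2.81 ± 0.35), Agpat2 (2.50 ± 0.47), Dgat1 (2.19 ± 0.34), Plin1 (1.97 ± 0.32), Dgat2 (1.52 ± 0.32), Lpl (1.48 ± 0.28), Pnpla2 (1.43 ± 0.27) and Cd36 (0.92 ± 0.26), with edgeR adjusted p from 5.6e-18 to 0.0010. Fabp4 missed the threshold (0.65 ± 0.31, edgeR adjusted p = 0.053), as did Gpam (0.23 ± 0.24).

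The size of these differences depended on what the libraries were scaled to. Against windows of like site number 7 loci were still higher with Pparg than with Ifng (32.8% of windows), of which 5 were among the 7 before: Lipe (0.09 ± 0.39) and Pnpla2 (0.39 ± 0.24) no longer passed, and Cd36 (0.77 ± 0.26) and Gpam (0.61 ± 0.24) did. Dgat1 then stood at 1.43 ± 0.30 and Plin1 at 0.68 ± 0.31. Between Lpin1 and Ifng 9 were higher (32.6% of windows), all but Pnpla2 (0.54 ± 0.27). With DESeq2's size factors, which rest on 626 of the 1959 windows, the median of all windows moved from -0.19 to -1.30 for Pparg against Ifng and from -0.12 to -0.97 for Lpin1 against Ifng. The split of all windows moved to 12.1% higher and 59.1% lower for Pparg against Ifng, and 10.1% and 51.8% for Lpin1 against Ifng, and 4 loci were higher and 1, Gpam, lower in both. The 4 were Plin1, Dgat1, Agpat2 and Dgat2 with Pparg, and Plin1, Dgat1, Agpat2 and Lipe with Lpin1.

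Between the fat-gene baits, 1 locus differed: Lipe was lower with Pparg than with Lpin1 by a log2 of -1.36 ± 0.30 (95% interval -1.96 to -0.77, edgeR adjusted p = 0.00013), where 4.8% of windows were lower and 9.9% higher. It was -1.83 ± 0.30 against windows of like site number and -1.70 to -1.20 with any 1 library left out, and it was called with each site counted once. It missed the threshold with reads in place of captured sites (-1.80, edgeR adjusted p = 0.24) and with windows of 250 kb on each side (-0.94, 0.20), and Lipe was not among the 6 loci tested after thinning to the shallowest library. Dgat1 (0.61 ± 0.25) and Dgat2 (0.63 ± 0.28) did not pass (edgeR adjusted p = 0.068 and 0.093), and 1 locus passed as higher with Pparg without Pparg day 0, 1 or 2 replicate 1 or without Lpin1 day 2 replicate 1. For Plin1 (0.08 ± 0.27, 95% interval -0.45 to 0.61), Lpl, Agpat2, Gpam, Pnpla2, Cd36 and Fabp4 the 95% intervals included 0.

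**Figure D4:**
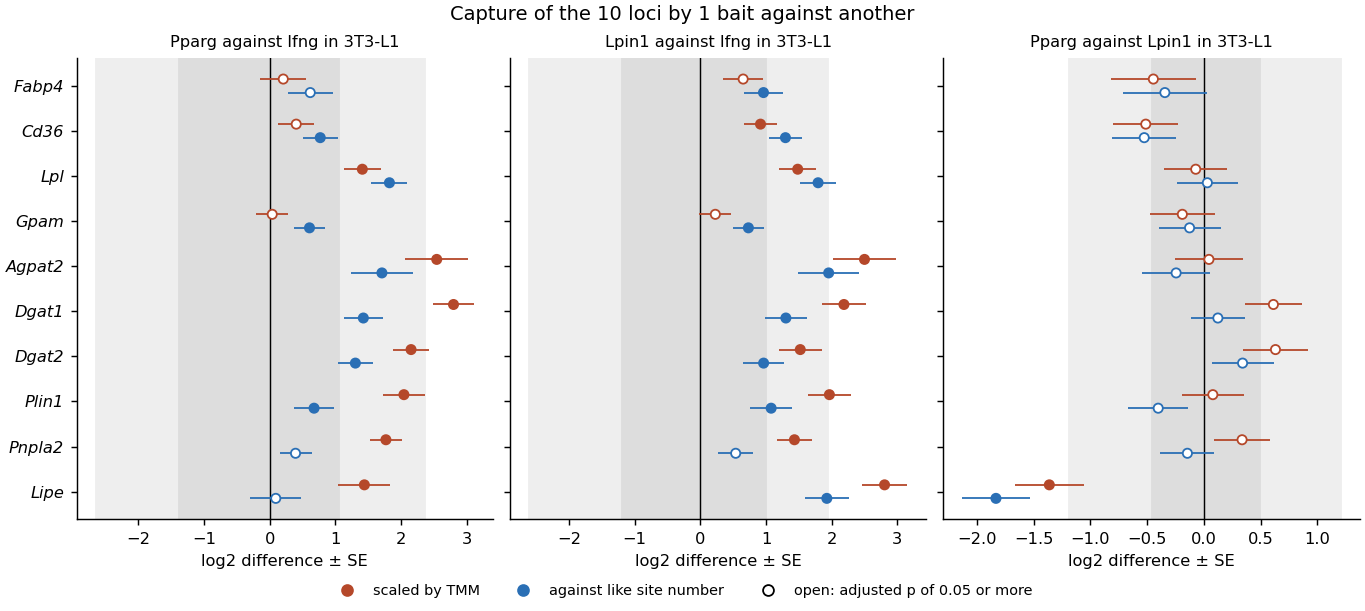
log2 difference in captured sites between baits in 3T3-L1 (x axis) for each locus (y axis), with SE bars, for Pparg against Ifng, Lpin1 against Ifng and Pparg against Lpin1. Red is scaled by edgeR's TMM and blue is set against windows of like site number, filled symbols passed the edgeR test, and grey bands span the quartiles (dark) and the 5th to 95th percentile (light) of all 1959 windows under TMM; Lipe is the 1 filled locus in the panel of Pparg against Lpin1.

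Across adipogenesis no locus passed in any of the 9 contrasts of days 1, 2 and 6 with day 0 (3 baits by 3 days, edgeR with adjustment over 1637, 1860 and 2230 windows for Pparg, Lpin1 and Ifng), and DESeq2 called none either. Of all windows 0.0% were called in 7 of these contrasts, and with Pparg 0.0611% were lower at day 2 and 0.0611% were higher and 0.0611% lower at day 6. At an unadjusted p under 0.05 the 10 loci gave 0, 0 and 1 at days 1, 2 and 6 with Pparg, 1, 2 and 1 with Lpin1, and 0, 2 and 1 with Ifng. The shares of all windows at that threshold, in the same order of days, were 5.68%, 8.43% and 10.8% with Pparg. With Lpin1 they were 5.48%, 5.91% and 7.63%, and with Ifng 3.90%, 4.44% and 5.25%. The median SE of a locus was 0.37 to 0.62 on the log2 scale, and changes well above that size could also go undetected at this depth. At day 6 the lowest log2 values, -1.63 with Pparg and -2.70 with Ifng, did not pass.

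The values with the smallest p are given as descriptions. With Pparg Agpat2 was 2.18 and 1.80 at day 0 and 0.431 and 1.70 at day 6 (log2 -1.63 ± 0.79, edgeR adjusted p = 0.29). Lpl was 1.50 and 1.87 at day 0 and 0.779 and 0.614 at day 6, the 0.614 from 1 captured site (-1.16 ± 0.66, edgeR adjusted p = 0.47). With Lpin1 Lipe was 2.53 and 1.43 at day 0 and 4.68 and 3.84 at day 6, the 3.84 from 4 captured sites (1.02 ± 0.47, edgeR adjusted p = 0.61). With Ifng Agpat2 was 0.501 and 0.476 at day 0 and 0.167 and 0 at day 6 (-2.70 ± 1.45, adjusted p = 0.69), the 0 being 0 of 267 sites, which allows up to 1.12%. At day 2 Ifng captured Plin1 at 0.400 and 0.158 against 0.847 and 0.616 at day 0 (-1.23 ± 0.51, adjusted p = 0.99) and Dgat2 at 0.656 and 0.964 against 0.427 and 0.289 (1.09 ± 0.47, adjusted p = 0.99).

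At the other days with Lpin1 the smallest p were those of Dgat1 at day 1, 0.987 and 1.48 against 1.97 and 2.90 at day 0 (-1.09 ± 0.57, adjusted p = 0.89), and Gpam at day 2, 2.65 and 2.42 against 1.44 and 1.53 (0.80 ± 0.34, adjusted p = 0.83). In the fit of the difference between baits in the day 6 change, none of the loci passed, where 0.051% of windows did in each comparison. Gpam differed most between Pparg and Ifng (-1.60 ± 0.78, edgeR adjusted p = 0.50) and Agpat2 between Lpin1 and Ifng (2.65 ± 1.68, adjusted p = 0.67). Pooled over the 10 loci, the multiple was 1.80 ± 0.206, 2.07 ± 0.177, 1.91 ± 0.108 and 1.31 ± 0.0700 at days 0, 1, 2 and 6 with Pparg (SD, n = 2), 1.53 ± 0.127, 1.66 ± 0.0682, 1.88 ± 0.369 and 2.21 ± 0.603 with Lpin1, and 0.625 ± 0.0650, 0.642 ± 0.0652, 0.657 ± 0.0270 and 0.562 ± 0.0468 with Ifng. The day 6 libraries held 68 and 16 captured sites over the 10 loci with Pparg, 54 and 35 with Lpin1, and 34 and 59 with Ifng. An SD of 2 libraries is itself uncertain, and the pooled values were not tested between days.

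**Figure D5:**
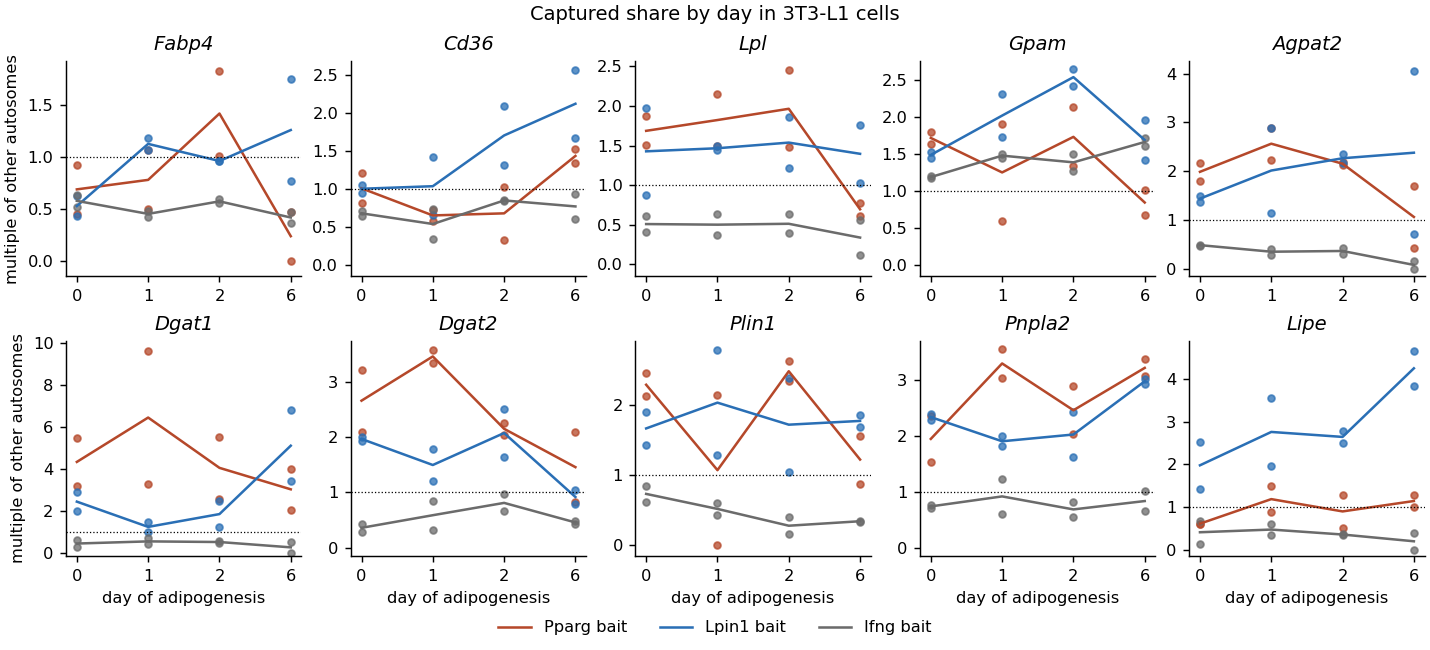
Multiple of each locus (1 panel a gene, y axis) at days 0, 1, 2 and 6 of adipogenesis in 3T3-L1 (x axis, evenly spaced) with the 3 baits (colours), the dotted line at 1 being the genome's level. Points are single libraries and lines join the means of the 2 libraries of a day. The Lipe libraries of day 6 with Lpin1 stood at 4.68 and 3.84, and no locus passed the test of any day against day 0.

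The B lymphocyte library of each bait shows the same loci in a cell type outside the fat lineage. With Pparg 8 loci were above 1 in B cells, where 41.6% of windows were, and with Lpin1 9 were, where 42.8% were. Both counts lie within the range of the 3T3-L1 libraries. With Ifng 3 loci were above 1, above that range. The share of all windows with Ifng, 39.6%, was also above the 32.8% to 38.8% of the 3T3-L1 libraries. Tested against the mean of the 4 days, with the single B cell library assumed to vary like the 3T3-L1 libraries, 1 locus passed with Ifng, Dgat2, which was higher in that 1 library by a log2 of 2.09 ± 0.42 (95% interval 1.26 to 2.92, edgeR adjusted p = 0.0093), where 3.23% of windows were higher. It was captured at 13 of 271 sites, a multiple of 2.20 (Wilson 95% interval 1.30 to 3.69, counting error only), against a highest 3T3-L1 library of 0.964. The p rests on the spread between the 3T3-L1 libraries, and none was measured between B cell libraries. DESeq2, which called 0 of 2230 windows (145 at an unadjusted p under 0.05), did not call Dgat2 (2.14, adjusted p = 0.41), nor did windows of 250 kb on each side (2.52, edgeR adjusted p = 0.055), and with each site counted once Dgat2 and Pnpla2 were called. None passed with Pparg or Lpin1, where 0.183% and 0.484% of windows were higher and 0.0% and 0.108% lower. At an unadjusted p under 0.05 each had 1 locus, where 11.2% of windows with Pparg and 15.5% with Lpin1 had such a p.

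Values of B cells outside the 8 libraries of 3T3-L1 are given as a description. With Ifng Pnpla2 was 2.10, from 10 captured sites (Wilson 95% interval 1.15 to 3.78), and Dgat2 was 2.20, each above all 8. Dgat1 was 1.24, from 6 sites (0.569 to 2.64), and Agpat2 was 0.527, from 3 (0.180 to 1.52), also above all 8. Gpam was 0.684, from 5 sites (0.293 to 1.58), below all 8 and below 1. With Pparg Dgat2 was 5.05, from 14 captured sites (Wilson 95% interval 3.03 to 8.29), above all 8. Dgat1 was 1.76, from 4 captured sites (0.685 to 4.43), below all 8. With Lpin1 Pnpla2 was 0.794, from 6 captured sites (0.365 to 1.69), below all 8, while the other 9 loci lay inside. Among these single libraries Dgat2 lay above all 8 with 2 baits, and Lipe, at 0.881, 2.34 and 0.207 with the 3 baits, lay inside the range with each of them. The share of all windows outside the range of the 8 was not counted, so no background stands beside these values.

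Leaving out the 6 libraries that shared sites left 1 Pparg library a day, and 1 Lpin1 library at days 1 and 2. The Pparg fit then joined days 0 and 1, and days 2 and 6, so that different days stood as replicates. In it 7 loci were above the other autosomes (25.9% of windows), the 6 named and Lpl, and Fabp4 was below (45.2%). With Lpin1 the mean multiple then ran from 0.934 at Fabp4 to 3.09 at Lipe and Dgat1. Fits between baits held 1 Pparg library a day, so their spread came from the other groups. With each site counted in 1 library of a bait only, 4 loci were above with Pparg (Plin1, Pnpla2, Dgat1 and Dgat2), where 22.6% of windows were. With Lpin1 8 were above (all of the 9 called before but Agpat2), where 16.5% of windows were. With Ifng 7 were below (all of the 8 called before but Dgat1), where 23.3% of windows were. Without the 6 libraries the tests of days and of B cells for Pparg alone were not run. For Pparg the count above the other autosomes fell to 3 without day 1 replicate 1 or without day 6 replicate 1.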

How the data were processed

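The 27 files of 15 samples each list the HindIII sites of mm9 with a raw read count per site in column 4, as the authors deposited them; the submitters' processing notes name Bowtie and mm9, and no other step is given in the sources used here. Reads are not independent molecules, so a site with at least 1 read was scored as captured. The number of captured sites per window of 1 Mb was tested against its number expected from the other autosomes, or from flanks of 0.5 to 2 Mb, as an offset in edgeR 4.0.16 (quasi-likelihood, R 4.3.3) over all windows with at least 50 sites. Days, B cells and baits were compared with TMM scaling over windows with a mean of at least 3 captured sites. P-values were adjusted by Benjamini-Hochberg over all windows at a threshold of 0.05, and the fits were tested on simulated data. Alternatives used DESeq2 1.42.0 and limma 3.58.1. Wilson intervals at 95% and limits for a count of 0 (3 counts) cover counting error only, and copy number was not tested. Depth is given in the report. All 10 loci were named. The members and lists were chosen with earlier results of these data known. The comparison with windows of like site number, the count of each site in 1 library, and the fits without libraries that share sites or captured under 1% were chosen after seeing the data. Replicate numbers stand only in the deposited names and were not shown to pair the libraries.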

Additional observations from a re-analysis of the deposited data

Results flagged for a closer look

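Dgat1 held both values that stood apart from the other 3T3-L1 libraries of their group of 8, among 30 groups of 10 loci and 3 baits; chance alone sets about 1 group in 20 apart. With Pparg the highest multiple was 9.63, in day 1 replicate 2, from 11 captured sites, and its gap to the next library was 0.541 of the range. With Lpin1 the highest was 6.81, in day 6 replicate 2, from 7 captured sites, with a gap of 0.585 of the range. Both libraries are among the 5 that captured under 1% of the other autosomes, and the part of that depth in the values was not tested.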

How the results depend on the processing

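Of the counts of loci, 382 of 408 values with 1 library left out and 266 of 311 under other settings stayed within 1.5 times the reported count. Reported counts of 0 that stayed at 0 are included, among them those of all 9 contrasts of days. These were not counted apart, so the shares do not measure how firm the counts above 0 are. Of single loci, 940 of 1008 and 620 of 738 kept direction and side of the threshold, and 63 and 102 no longer passed. The causes were not tested. Over the other autosomes the 1 locus below with Pparg became 0 with 250 kb windows, with sites also seen with the other baits, and with limma. Lpin1 had 5 above with sites seen with the other baits, and Ifng 0 above with 2 reads, 250 kb or those sites. Leaving out 1 library gave 3 to 6 above and 0 to 1 below with Pparg, 6 to 9 above with Lpin1, and 8 to 9 below with Ifng. Over flanks Pparg had 2 above with sites seen with the other baits or counted once, and 0 below with flanks of 0.5 to 1 Mb. Lpin1 had 2 above with the seen sites and 3 with limma, flanks to 1 Mb, sites counted once, or without libraries under 1% captured, and 0 below with 2 reads, 250 kb, the seen sites, limma, flanks to 1 Mb, sites counted once, and without libraries that share sites or captured under 1%. Ifng had 0 above with 2 reads, 250 kb, the seen sites, flanks to 1 Mb or sites counted once, and 2 below with 2 reads, 250 kb or the seen sites and 1 with flanks to 1 Mb or sites counted once. Leaving out 1 library gave over flanks 2 to 4 above and 1 to 1 below with Pparg, 2 to 5 above and 0 to 0 below with Lpin1, and 2 to 5 below with Ifng.

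Between baits, DESeq2 gave 4 higher and 1 lower for Pparg and for Lpin1 against Ifng, and thinning, with 6 loci tested, gave 3 and 4 higher. Between Pparg and Lpin1 0 loci were lower with 250 kb or reads, and with thinning, where Lipe was not among the 6 loci tested. Leaving out 1 library gave 5 to 7 higher for Pparg and 7 to 9 for Lpin1 against Ifng, and 0 to 1 higher and 1 to 1 lower for Pparg against Lpin1. For Ifng in B cells 0 were higher with 250 kb (7 loci tested) or DESeq2 and 2 with sites counted once (6 loci tested). With the replicate number as a block, 0 loci passed in the 9 comparisons of days and 7, 8 and 1 between baits; the numbers' pairing was not shown, with correlations of same-day deviations from -0.022 to 0.254. The B cell libraries carry no replicate number; a block that codes them with replicate 1 called Dgat2 with Ifng as well. The fits of days and of B cells for Pparg without libraries that share sites were not run.

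Over all 10 loci, in the comparisons with other autosomes, with flanks and between baits, 7 of 1220 values of called loci and 102 of 768 of loci not called turned sign. Of the single loci followed through the settings, these turned (log2). For Pparg, Plin1 was -0.057 against like windows, and leaving out 1 library gave -0.64 to 0.98, and -0.84 to 0.77 over flanks, the lowest both times without day 1 replicate 1; Dgat1 at day 2 was 0.022 with 250 kb, 0.20 with reads, 0.18 thinned and 0.50 without day 2 replicate 1; Pnpla2 at day 6 was -0.18 with reads. For Lpin1, Cd36 was -0.41 and, over flanks, -0.71 with the seen sites, and Dgat1 at day 2 was -1.02 to 0.13 with 1 library left out (0.13 without day 0 replicate 2, 0.037 without day 2 replicate 2) and 0.034 without libraries that share sites. For Ifng with flanks to 1 Mb, Plin1 was 0.13 and Gpam -0.16; Gpam at day 1 was -0.13 with 2 reads and -0.056 with reads; Dgat2 at day 2 was -0.27 with 2 reads; Gpam was -0.0028 at day 6 and 0.074 in B cells with 250 kb. The day 6 change of Dgat2 between Lpin1 and Ifng was 1.39 thinned. Depth limits the loci in the 5 libraries under 1% captured, where 18 of 50 values rest on 2 captured sites or fewer (0 to 11, median 3).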
